A study of Mus musculus with 108 samples.

Results

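The genes described here encode the machinery that carries newly made proteins from the endoplasmic reticulum (ER) to the Golgi apparatus and returns escaped proteins to the ER. They are 35 named mouse genes, taken by symbol from the 45195 gene rows of the table and described over every cell: 10 genes of the COPII coat, 7 of the COPI coat, 7 p24 cargo receptors, 3 KDEL receptors, 4 other cargo receptors, and 4 Arf GTPases and SNAREs. All 35 had exactly 1 row. Each sample was 1 acinar cell, the enzyme-secreting cell of the exocrine pancreas, from untreated male C57BL/6 mice 12 weeks old. Pancreas was digested with collagenase, strained to take out islets and dissociated with Accutase, and cDNA was made by a modified SMART-seq2 procedure without molecular identifiers. The labels form 1 group and name neither animal nor day, so cells were not treated as replicates, no p-value was computed, and every SD is a spread over all cells.

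COPII coats bud vesicles from the ER. The GTPase Sar1 starts the coat, Sec23 and Sec24 form its inner layer, with Sec24 binding cargo, and Sec13 and Sec31 form the outer cage. COPI coats, or coatomer, bud vesicles from the Golgi that return membrane and ER proteins, and they are recruited by Arf GTPases. p24 proteins (the Tmed genes) cycle between both compartments with the vesicles, KDEL receptors retrieve soluble ER chaperones, and SNAREs fuse the vesicles with their target. Acinar cells export more protein than most other cells, and this route is the entry of their zymogens into the secretory pathway.

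Values are TPM, a share of reads corrected for transcript length and set per cell, so levels can be compared between genes. A gene counted as detected in a cell at 1 TPM or more. The 10 acinar markers, among them Cpa1, Ptf1a and Gp2, were detected in every cell. Endocrine markers reached at most 1 of 7 in a cell, with Sst and Ppy at 0 throughout, and none of 5 lymphocyte markers was detected. Cell 40 had at least 3 of 6 endothelial markers, cell 96 at least 3 of 6 stellate markers, and cells 31 and 40 at least 3 of 5 proliferation markers, while 30 cells had at least 3 of 7 ductal markers. In 21 cells, those numbered 92 and up, the deposited TPM add up to only 788380 to 990520, and these are called short-total here. The other 87, called full-total, reach 1000000 within rounding. Digestive enzymes took a median of 89% of a cell's TPM, and the number of genes detected ran from 2624 to 6946 per cell. TPM keep no depth, so the number of reads behind a value is unknown.

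The promoters of these genes are shown first, because the members with a particular ER stress motif are spread over several vesicle components. Of the 35 genes, 30 had an entry in the RefSeq promoter table (GRCm38.p6, 250 bases before to 50 after the start). The entries for Arcn1, Kdelr2, Lman1, Tmed2 and Tmed7 are not in it. Searched on both strands, the unfolded protein response element TGACGTGG lay in the promoter of 6 of the 30, or 20.0%. It lay in 1.27% of the 5585 tested genes with an entry and in 0.714% of all 27025 genes with one. The carriers were the COPII genes Sec24d and Sec23a, the COPI genes Copb1 and Copb2, the KDEL receptor gene Kdelr3 and Arf1. Each site is printed 5′ to 3′ with the motif in capitals and 5 bases on either side:
Sec24d: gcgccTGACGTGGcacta
Kdelr3: cgcggTGACGTGGcgggg
Copb1: ttggcTGACGTGGaaggg
Copb2: cccacTGACGTGGaactt
Arf1: ggcgcTGACGTGGctgcc
Sec23a: cccttTGACGTGGcagag

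These windows lie, in the order printed, at chr3:123267465-123267482 (plus strand), chr15:79516373-79516390 (minus), chr7:114254696-114254713 (plus), chr9:98563719-98563736 (minus), chr11:59228234-59228251 (minus) and chr12:59011999-59012016 (minus). Where a motif stood against the start of its gene depended on the annotation. Counted from the RefSeq start of the promoter table, its near edge lay 19 bases upstream for Sec24d, 21 for Copb1 and 23 for Kdelr3. The motif of Copb2 reached the start base, that of Sec23a lay after the start, and that of Arf1 lay before one of its 2 listed starts and after the other. By the GENCODE M21 gene boundaries on the same build, 5 of the 6 motifs lay inside the gene, and that of Kdelr3 lay outside it.

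The ER stress element of chaperone genes lay in several chaperone promoters and in no member. Written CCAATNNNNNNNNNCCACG, it lay in the promoter of 7 of 13 ER lumen chaperone genes with an entry and in 0 of the 30 members, against 0.215% of tested genes. The site of Hspa5, which encodes the ER chaperone BiP, is shown for comparison, from chr2:34772020-34772048 on the plus strand, with the element 65 to 47 bases before the RefSeq start of the table and inside the GENCODE M21 gene:
Hspa5: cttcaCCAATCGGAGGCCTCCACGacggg

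The second form, ATTGGNCCACG, lay in 0 members and in 2 of the 13 genes of the chaperone list. The short element TGACGTGG lay in 0 of those 13. Its reverse complement contains CCACG, the letters that end the longer elements. CCACG alone lay in 22 of 30 members (73.3%) and in 54.7% of tested genes. The 2 forms of the ER stress element and the short element were rare among tested genes (0.215%, 0.143% and 1.27%). The counts of 0 therefore set neither the members nor the chaperone genes apart. These are matches of letters, with no measure of binding. The 6 carriers had mean levels from 25.7 TPM for Arf1 to 0.224 TPM for Sec23a, the lowest member. All carriers but Arf1 lay under the median of the members' means, 7.98 TPM.

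Over the 35 genes the mean level ran from 55.6 ± 16.3 TPM (mean ± SD over cells) for Mcfd2 to 0.224 ± 0.370 TPM for Sec23a. The summed level of all members was 473 ± 95.7 TPM per cell, between 292 in the lowest cell and 679 in the highest, cell 8. That was a median of 0.435% of the TPM outside the digestive enzymes. By group, the p24 receptors summed to a mean of 131 TPM, the other cargo receptors to 85.9, the Arf GTPases and SNAREs to 85.5, the COPI coat to 83.7, the COPII coat to 52.3 and the KDEL receptors to 34.9. Of the 35 members, 18 were detected in every cell, against 11.1% of the 7227 genes detected in at least 10% of cells, which are the genes called tested here. The median of the members' means was 7.98 TPM and that of tested genes 1.35 TPM. All members but Sec23a were among the tested genes.

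**Figure D1:**
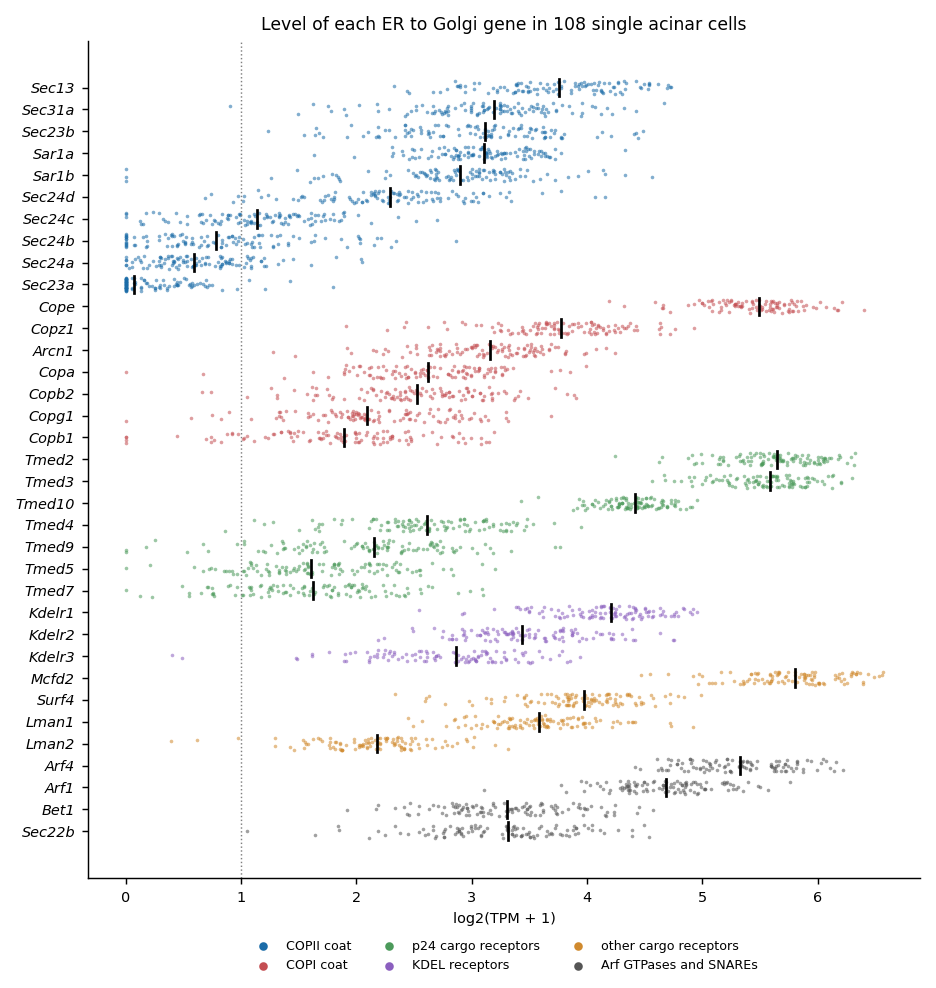
Level of each of the 35 genes in every cell, as log2(TPM + 1), with 1 point per cell, a black bar at the median, and colours for the 6 groups; the dotted line marks 1 TPM, the detection level. Mcfd2, Tmed2, Tmed3, Cope and Arf4 lie to the right, and Sec23a and Sec24a to the left.

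In the COPII coat the outer cage and Sar1 were present in nearly every cell, and the inner layer was carried by few of its paralogs. Sec13, a cage subunit, had 4.01 TPM in the lowest cell, a median of 12.5 and 25.5 in the highest. Its partner Sec31a had 0.870, 8.17 and 24.4 TPM, with all cells but 1 at the detection level. Sar1a and Sar1b stood close together, at means of 7.82 ± 2.54 and 6.93 ± 3.66 TPM, and neither was the higher in all cells: Sar1a led in 65 and Sar1b in 43. Sar1b was at 0 in 3 cells, whereas Sar1a was never under 2.10 TPM. RSEM, named in the processing notes, shares reads among similar transcripts, so the split between close paralogs such as these is uncertain.

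Sec23, the GTPase activator of Sar1, came almost wholly from Sec23b. Sec23b had 1.35, 7.65 and 21.4 TPM (lowest, median, highest), and Sec23a had 0, 0.0550 and 2.47 TPM. Sec23b was the higher of the pair in every cell, its mean was 35.6 times that of Sec23a, and its median share of their sum was 99.2%. Sec23a reached 1 TPM in 4 cells, or 3.70% (exact 95% interval 1.02% to 9.21%, counting error only).

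Among the 4 Sec24 genes, whose proteins select cargo, Sec24d led with a median share of 58.6% and was the highest in 94 cells. Its level was 0.610, 3.91 and 16.9 TPM in the lowest, median and highest cell. Sec24c held a median of 18.3%, Sec24b 10.3% and Sec24a 6.83%. Sec24c was detected in 67 cells, Sec24b in 39 and Sec24a in 21, so the last of these is near the detection level in most cells. Shares within a cell do not depend on how that cell is scaled. The Sec24d share was a median of 46.6% in short-total and 63.5% in full-total cells, beside an SD of 16.4 over all cells.

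Sec24a and Sar1b are neighbours on chromosome 11. On GRCm38 with GENCODE M21, Sec24a (chr11:51692264-51763634, minus strand) and Sar1b (chr11:51763687-51791925, plus strand) point away from each other with 52 bases between them. Their levels over cells had a Spearman correlation of 0.026. Sec24a averaged 0.649 TPM against 6.93 TPM for Sar1b.

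**Figure D2:**
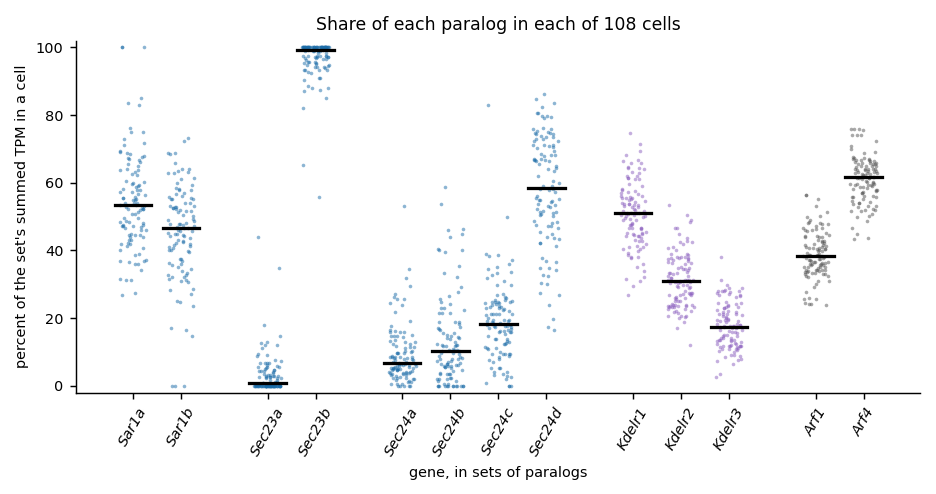
Percent of a paralog set's summed TPM held by each gene in each cell, with 1 point per cell and a black bar at the median. Sec23b lies near 100 in most cells, Sec24d leads its set at 58.6, the Sar1 pair overlaps, and the KDEL receptors step down from Kdelr1 to Kdelr3.

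The COPI subunits, which assemble as one complex, differed widely in transcript level. Cope, the epsilon subunit, had 17.3, 43.9 and 83.6 TPM in the lowest, median and highest cell. Its mean of 44.2 TPM was 7.87 times the median of the 7 subunits. Copz1 (zeta) came next, at a mean of 13.5 TPM, followed by Arcn1 (delta) at 8.13. The large subunits were lower, with means of 5.61 TPM for Copa (alpha), 5.30 for Copb2 (beta prime), 3.92 for Copg1 (gamma) and 3.05 for Copb1 (beta). Copb1 was detected in 94 cells and was at 0 in 4. On GRCm38, Cope spans chr8:70302518-70312993 and Arcn1 chr9:44741564-44767845.

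A pair of further coatomer genes, neither of them a member, showed how paralogs were split. Copz2, a second zeta gene, had 22, 37.5 and 86.8 TPM, a mean of 39 against 13.5 for Copz1. Copg2, a second gamma gene, averaged 0.748 TPM and was detected in 26.9% of cells, against 3.92 TPM and 95.4% of cells for Copg1. Over the 35 members, mean TPM and the length of the longest annotated transcript had a Spearman correlation of -0.60 across genes, against -0.31 over 7202 tested genes. Over the 7 COPI members alone it was -0.57. Genes are not replicates, and TPM already divide by length. The part of transcript length in the order of the subunits was not tested.

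The p24 receptors formed a high and a low set. Tmed2 had 18, 49.2 and 79.3 TPM in the lowest, median and highest cell, and Tmed3 had 22.6, 46.9 and 77.8 TPM. Tmed10 followed with 9.75, 20.3 and 29.9 TPM. These 3 held median shares of 38.4%, 35% and 15.2% of the group's sum, and each was above Tmed4, Tmed5, Tmed7 and Tmed9 in every cell. The low set had means of 5.59 TPM for Tmed4, 3.66 for Tmed9, 2.50 for Tmed5 and 2.36 for Tmed7, and was detected in 83.3% to 99.1% of cells. Outside the members, a pair of relatives had higher means than any of them. Tmed6 had 146, 298 and 386 TPM, with its lowest cell above the highest cell of any member, and Tmed11 lay between 14.2 and 223 TPM with a CV of 0.341.

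KDEL receptors stepped down from Kdelr1 to Kdelr3. Kdelr1 had 4.82, 17.5 and 30.1 TPM in the lowest, median and highest cell, Kdelr2 had 3.56, 9.81 and 26, and Kdelr3 had 0.320, 6.27 and 14.3. Kdelr1 was above Kdelr3 in every cell and above Kdelr2 in 94, and Kdelr2 was above Kdelr3 in 93. Median shares of their sum were 51.1%, 30.9% and 17.5%. The most abundant ligands in the ER lumen list were far higher than the receptors, with means of 146 TPM for P4hb (protein disulfide isomerase) and 114 for Hspa5.

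The cargo receptor genes were led by Mcfd2, the soluble partner of the lectin Lman1. Mcfd2 (chr17:87254443-87265935) had 21.1, 54.9 and 93.5 TPM, the highest mean of any member, while Lman1 had a mean of 11.6 ± 4.29 TPM. Surf4, a receptor for soluble secreted proteins, averaged 15.0 ± 5.02 TPM, and the lectin Lman2 averaged 3.64 ± 1.48 TPM. The 2 subunits of the Lman1 and Mcfd2 receptor thus stood at different transcript levels, with Lman1 reaching 29.2 TPM in its highest cell.

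Arf4 was above Arf1 in all cells but 6. Arf4 had 20.4, 39.1 and 73.3 TPM, and Arf1, the main recruiter of coatomer, had 7.63, 24.7 and 53.3 TPM. Both SNAREs were detected in every cell at lower levels, with means of 9.62 ± 4.10 TPM for Bet1 and 9.28 ± 4.17 TPM for Sec22b. The coat scaffold gene Sec16b, which is not a member, averaged 0.217 TPM and reached the detection level in 3 cells. Its paralog Sec16a, also no member and named after its values were seen, averaged 2.55 TPM and was detected in 83.3% of cells.

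Cell-to-cell spread was near or under that of genes of similar level. Spread was measured as the square of the coefficient of variation (CV), divided by the trend of that measure on mean TPM over tested genes. A gene was called variable at 2 times the trend. None of the 34 tested members was called, against 12.0% of tested genes, and the members' median was 0.781 times the trend. The highest were Sec24b at 1.22, Sec23b at 1.18 and Sec24d at 1.12. Tmed10 was the lowest at 0.246, with a CV of 0.188, and its level spanned 9.75 to 29.9 TPM over the cells. Lman2 (0.431) and Sar1a (0.454) were next.

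Some lists of neighbouring steps held variable genes. Of the 15 genes on the ER lumen chaperone list, 5 were called variable. Herpud1 led at 4.04 and Hspa5 followed at 3.92 times the trend, and the list's median was 1.43. None of 18 ER translocation genes was called. Of 51 tested genes among the other ER to Golgi genes, 1 was called, Arf2 at 2.42. Within the acute ER stress list 3 of 6 were called, with Atf3 at 27. When only the 21 short-total cells were used, Sec24d and Tmed9 were called among the members and 14.4% of tested genes.

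**Figure D3:**
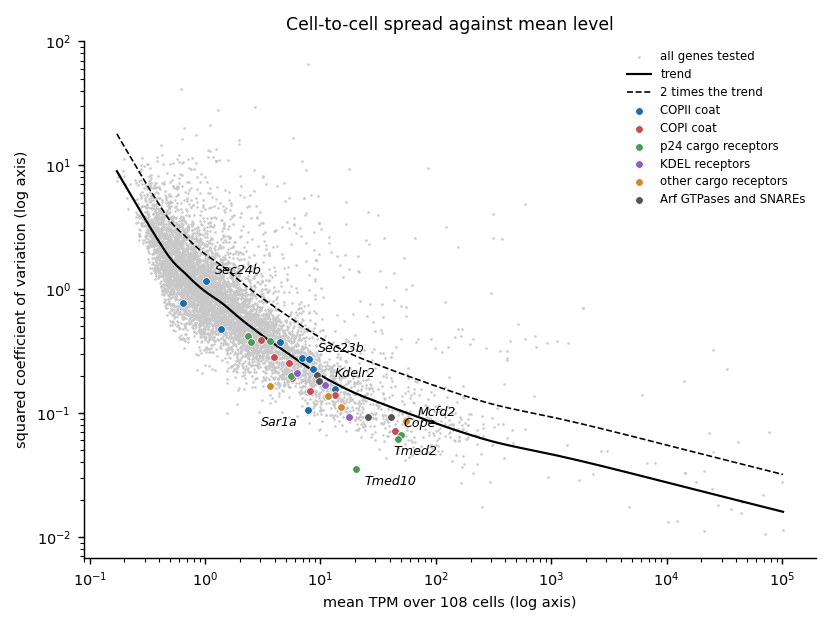
Squared CV over all cells against mean TPM (both log axes) for 7227 tested genes in grey, with the 34 tested members in colour, the trend as a line and the 2-fold limit dashed. All coloured points lie under the dashed line, and Tmed10 lies farthest under the trend.

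Members varied together over cells on the deposited scale. Over the 561 pairs of 34 members, the median Spearman correlation of log2(TPM + 1) was 0.29, against 0.056 over all pairs of tested genes. Of the member pairs 537 were above 0, and of the 26111151 pairs of tested genes 18318541 were. Each of the 34 had a higher median with the other members than with tested genes outside them. With the median-of-ratios scaling described below, the medians of Bet1 (-0.032) and Sec24a (-0.0091) with the members were under that of all tested pairs (0.015). The cells share 1 table and their depth is unknown, so these are descriptions over the cells with no p-value.

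Within groups the median was 0.34 for COPI, 0.28 for the KDEL receptors, 0.27 for p24 and 0.19 for COPII. Between groups it was 0.32 for COPI with KDEL receptors, 0.32 for p24 with KDEL receptors, 0.30 for COPII with COPI, 0.29 for COPI with p24, 0.26 for COPII with KDEL receptors and 0.24 for COPII with p24. The SD over pairs was between 0.082 and 0.14, wider than most of these gaps. The order of these medians turned with the scaling and the cells used. For COPI among themselves and COPI with COPII they were 0.11 and 0.12 after the median-of-ratios scaling described below. In short-total cells the COPI median among themselves was 0.13, under 0.18 with p24 and 0.22 with KDEL receptors.

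Arcn1 and Arf4, a coatomer subunit and a GTPase, formed the closest pair, at 0.64. Arcn1 was also the closest member of Arf1 (0.60), Mcfd2 (0.57), Copg1 (0.56) and Copb2 (0.54). Tmed2 and Arf4 reached 0.58. At the other end, Bet1 had a median of 0.090 with the other members, Sec24b 0.087 and Sec24a 0.070, and the lowest pair was Sec24c with Bet1 at -0.14. Sec24a and Sec24b are near the detection level, but Bet1, at 9.62 TPM, was detected in every cell.

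The number of genes detected in a cell moved with the members' level. A member score, the mean z-score of log2(TPM + 1) over the 34 genes, had a Spearman correlation of 0.84 with the number of genes detected, and 0.80 and 0.73 within full-total and short-total cells. With the share of TPM in digestive enzymes it was -0.30, and -0.12 and 0.022 within those sets. These values changed when cells were scaled by the median ratio over 1226 genes above 0 in every cell (median-of-ratios scaling). The score then had a correlation of 0.54 with the number of genes detected, and 0.45 and 0.37 within full-total and short-total cells, and of 0.018 with the enzyme share. After each gene was adjusted for the number of genes detected, the median over member pairs was 0.11, against 0.0044 over all tested pairs. With median-of-ratios scaling it was 0.10 against 0.015. On that scale the KDEL receptors stood at 0.010 among themselves, and Arcn1 with Copb2 was the closest COPI pair at 0.46. The 5 lowest cells by score, 4 of them short-total, had between 2624 and 3759 genes detected. The 5 highest, cells 8, 51, 40, 75 and 38, had between 4710 and 6946. Not all of these cells were extreme after median-of-ratios scaling, where cell 40 stood at rank 75 from the lowest and 1 of the 5 lowest, a short-total cell, at rank 40.

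**Figure D4:**
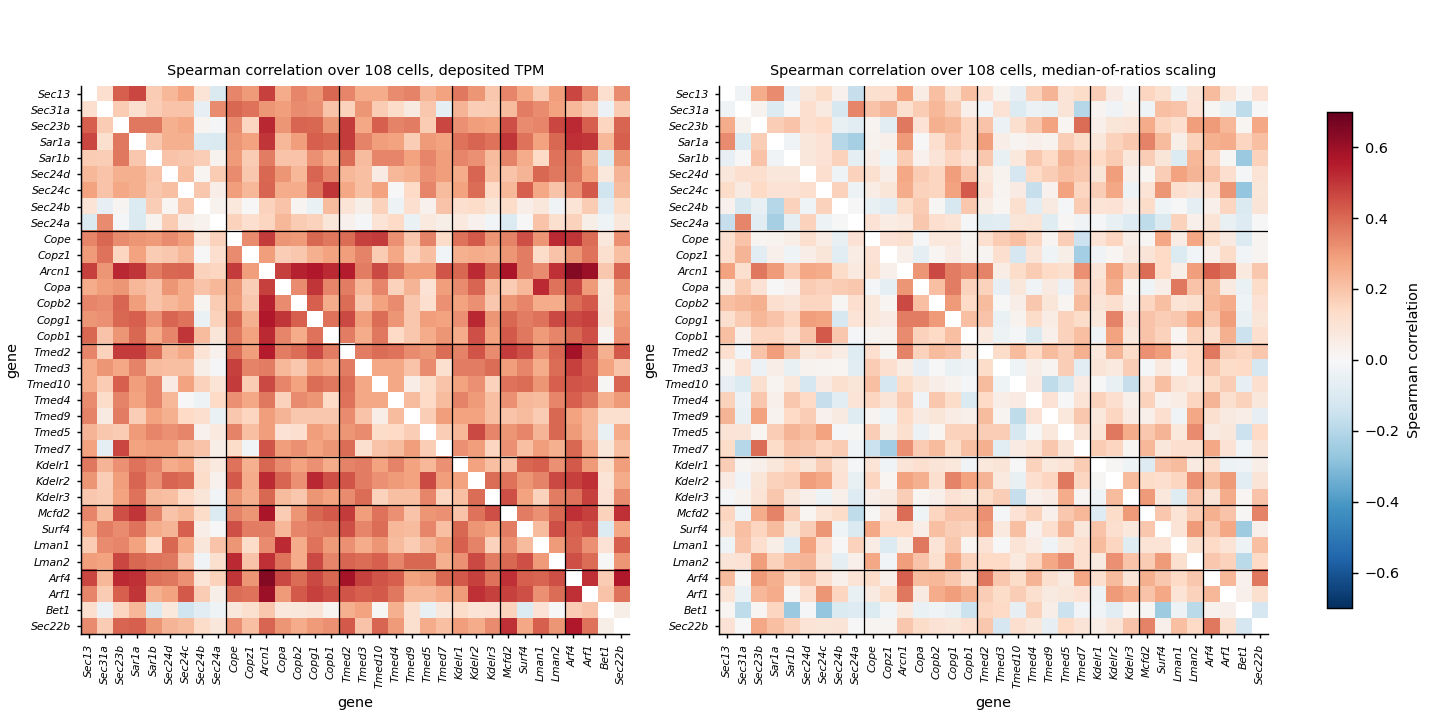
Spearman correlation over all cells for each pair of the 34 tested members, from deposited TPM on the left and after median-of-ratios scaling on the right, with black lines between the 6 groups. The median over pairs is 0.29 on the left and 0.10 on the right; the rows of Bet1, Sec24a and Sec24b are pale on the left, and that of Arcn1 is dark.

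Outside the members, the 10 genes with the highest Spearman correlation with the member score were Sec61a1 (0.79), Serp1, Vcp, Ssr1, Rpn1, Ssr3, P4hb, Tram1, Spcs3 and Rab1a (0.71). Sec61a1, Ssr1, Rpn1, Ssr3 and Spcs3 are on the ER translocation list, P4hb is on the chaperone list and Rab1a on that of other ER to Golgi genes. Sec61a1 encodes the channel of the ER translocon. Under median-of-ratios scaling Sec61a1 was again first of all tested genes, at 0.68, and P4hb moved to rank 53, at 0.42.

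Taken pair by pair, members had a median correlation of 0.35 with ER lumen chaperones over 510 pairs, the highest of the gene lists set beside them. The median was 0.29 with ER translocation genes, 0.19 with secretory regulators, 0.16 with other ER to Golgi genes, 0.14 with acute ER stress genes, 0.13 with granule Rab and SNARE genes and 0.043 with digestive enzymes. The other ER to Golgi genes had a median of 0.11 among themselves. The order was not the same for list scores, each a mean z-score like that of the members. The member score had a correlation of 0.86 with the ER translocation score, 0.85 with that of other ER to Golgi genes and 0.80 with that of ER lumen chaperones. With median-of-ratios scaling these were 0.58, 0.53 and 0.61. Scores of the remaining lists were also above 0 with the member score on the deposited scale. The values were 0.59 for granule Rab and SNARE genes, 0.58 for acute ER stress, 0.57 for secretory regulators and 0.34 for digestive enzymes. In the same order, they were 0.21, 0.44, 0.28 and -0.30 with median-of-ratios scaling.

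Hspa5 had a correlation above 0 with all 34 members, at a median of 0.38, against 0.095 with all tested genes. Kdelr2 was its closest member at 0.63, followed by Arf4 at 0.55 and Arcn1 at 0.54. Kdelr2 retrieves chaperones that carry the KDEL signal, BiP among them. The Kdelr1 and Kdelr3 values were lower, 0.32 and 0.34. After median-of-ratios scaling the Kdelr2 value was 0.54, the highest of the 34, while the median over members was 0.22 against 0.0033 with all tested genes, and 31 members were above 0. Xbp1, the unfolded protein response factor that drives secretory genes, had a median of 0.24 with the members, against 0.12 with all tested genes. With median-of-ratios scaling this was 0.069, and 23 of 34 were above 0. Tmed10 was its closest member at 0.48.

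Levels of most members were lower in short-total than in full-total cells. On the deposited scale 32 of 34 tested members had a lower mean log2(TPM + 1), and so had 5607 of the 7227 tested genes. The members' median difference was -0.41 against -0.15 over all tested genes. A difference of 0.5 or more downward was reached by 11 members, against 7.28% of tested genes. Sec24a (0.29) and Sec24b (0.12) were the 2 with a higher mean. By group the median was -0.60 for the KDEL receptors, -0.57 for the other cargo receptors, -0.42 for p24, -0.41 for COPI, -0.40 for COPII and -0.38 for the Arf GTPases and SNAREs. The contrast with tested genes depended on the value added to TPM. With 0.1 added in place of 1 (a pseudocount of 0.1), the members' median was -0.47 against -0.30 over tested genes, a narrower gap. The limit of 0.5 was then reached by 16 members, against 31% of tested genes.

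Sec13 differed most. It had 4.01, 7.12 and 13.8 TPM (lowest, median, highest) in the 21 short-total cells and 4.50, 14.2 and 25.5 TPM in the 87 full-total cells, a difference of -0.80. Kdelr3 followed at -0.78, with medians of 3.97 and 6.83 TPM, then Tmed9 at -0.69 and Copb1 at -0.68. The 2 sets of cells overlapped for each of these genes. Tmed10 and Copa differed least among the genes that were lower, by -0.07 and -0.05.

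The size of this difference depended on how cells were scaled. With each cell rescaled to 1000000 TPM, the members' median was -0.35 against -0.12 over tested genes. On that scale 30 of 34 members and 5206 of 7227 tested genes were lower, and 9 members passed the limit against 5.44% of tested genes. With median-of-ratios scaling the members' median was -0.17 against -0.02 over tested genes, and 27 of 34 were lower, against 3880 of 7227 tested genes. The limit was passed by 4 members (Sec13 at -0.54, Kdelr3 at -0.56, Copb1 at -0.52 and Tmed9 at -0.50) against 2.23% of tested genes. Scaled on the TPM outside the digestive enzymes, the median was -0.10 against 0.02 over tested genes, and 1 member passed against 1.55% of tested genes. The median number of genes detected was 3939 in short-total and 4224 in full-total cells, and the enzymes took 91.3% and 88.8% of TPM. ER lumen chaperones differed by a median of -0.86 on the deposited scale, with 11 of 15 past the limit, and by -0.58 with 9 of 15 after median-of-ratios scaling. The part of these values in the members' difference was not tested. The protocol states that some cells received spike-in RNA without naming them, and all short-total cells carry numbers above all others, so handling and any cell state cannot be told apart.

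**Figure D5:**
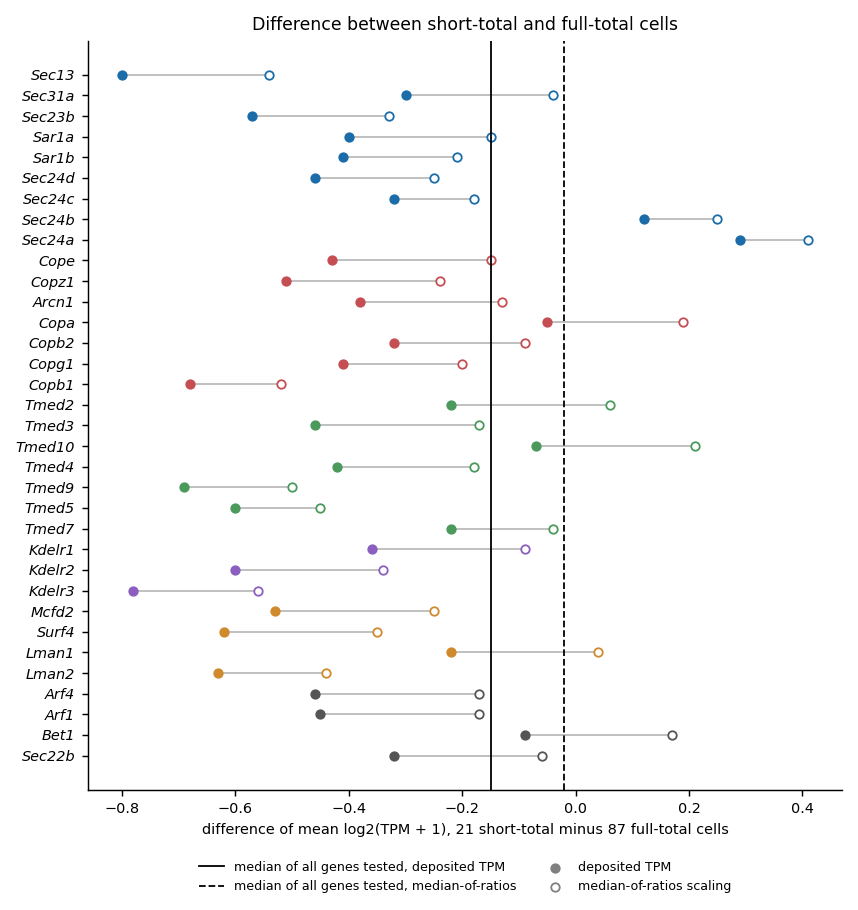
Difference of mean log2(TPM + 1), 21 short-total minus 87 full-total cells, for each of 34 members, with filled points for deposited TPM and open points for median-of-ratios scaling, and vertical lines at the medians of all tested genes (-0.15 and -0.02). Sec13 and Kdelr3 lie farthest left on both scales.

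Within the full-total cells, the 40 numbered 49 to 91 and the 47 numbered 1 to 48 had similar levels of most members. The median difference was -0.03, against -0.04 over tested genes, and no member reached 0.5 in either direction, against 1.30% of tested genes. Scaled on the TPM outside the digestive enzymes, the median was 0.13 against 0.05, and 1 member reached 0.5 against 1.40% of tested genes. With a pseudocount of 0.1 it was 1 member against 13% of tested genes. Sec23b was lowest at -0.40, with medians of 7.02 TPM in the later and 8.96 TPM in the earlier cells. Kdelr2 was highest at 0.36, with medians of 12.8 and 9.26 TPM and ranges of 6.54 to 26 and 6.09 to 25.8 TPM. The Kdelr2 share of the KDEL receptors, which does not depend on scaling, was a median of 35.9% in the later and 27.1% in the earlier cells. The cell numbers come from the labels, and what they follow is not given there.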

How the data were processed

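Single acinar cells were profiled by a modified SMART-seq2 procedure without molecular identifiers, per the labels' protocols. The deposited table holds TPM for 45195 gene rows in 108 cells; that the unit is TPM was read from the values. STAR 2.4.2a, RSEM 1.2.21, edgeR and mm10 are named, with no role or order, per the submitters' processing notes. Symbols matched 44548 rows, and gene coordinates are GENCODE M21 on GRCm38, while promoter windows use the RefSeq starts of the promoter table (GRCm38.p6). Computation used Python 3.11.15, pandas 2.3.3, scipy 1.17.1 and statsmodels 0.14.6. Tested genes were detected at 1 TPM in at least 11 cells. Spread was compared with a lowess trend (span 0.3), and correlations and differences used log2(TPM + 1). The scripts were tested on simulated data. Intervals for shares are exact (Clopper-Pearson). All cells were kept, and doublets were not called.

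The members and gene lists (other ER to Golgi, ER lumen chaperones, ER translocation, granule Rab and SNARE, secretory regulators, acute ER stress, digestive enzymes) and the division at cell 48 were chosen with earlier results of these data known. All members could be named, and of each other list the 3 genes of highest mean and the 2 of highest spread over the trend. The text could also name Xbp1, Hspa5, Tmed6, Sec16b, Copg2 and the 10 genes most like the member score. Alternatives were other pseudocounts, scalings, filters and sets of cells.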

Additional observations from a re-analysis of the deposited data

How the results depend on the processing

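Of 248 values under alternatives, 41 moved by more than the spread over single pairs, members or cells, or by more than 1.5 times for a count. For correlations that spread is wide (SD of 0.082 to 0.14 over pairs), so the other 207 are not shown to be stable. The largest shift of a median correlation was 0.06 with Pearson correlation, 0.05 with each cell rescaled to 1000000 TPM, 0.04 without the digestive enzymes, 0.03 with no filter and 0.01 without cells 31 and 40.

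With median-of-ratios scaling the median correlation was 0.10 for all members, 0.069 for COPII, 0.11 for COPI, 0.092 for p24 and 0.010 for KDEL receptors. Between groups it was 0.12 (COPII with COPI), 0.076 (COPII with p24), 0.079 (COPII with KDEL receptors), 0.085 (COPI with p24), 0.089 (COPI with KDEL receptors) and 0.098 (p24 with KDEL receptors), and with ER chaperones 0.16. Adjusted for the number of genes detected, it was 0.11 for all members, -0.018 for COPII, 0.12 for COPI, 0.11 for p24 and 0.067 for KDEL receptors. Between groups, in the same order, it was 0.091, 0.093, 0.080, 0.093, 0.078 and 0.13, and with ER chaperones 0.22. In full-total cells alone it was 0.17 for KDEL receptors and 0.21 for p24 with KDEL receptors. In short-total cells it was 0.15 for all members, 0.052 for COPII (0.044 over all tested pairs), 0.13 for COPI, 0.074 for COPII with COPI, 0.22 for COPI with KDEL receptors and 0.20 with ER chaperones. In cells 1 to 48 it was 0.094 for p24 and 0.21 for p24 with KDEL receptors. The cause of these shifts was not tested.

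At a detection level of 5 TPM, 7 members were detected in every cell, against 5.83% of tested genes. In short-total cells 2 members were variable, against 14.4% of tested genes. For short-total minus full-total cells, scaling without the digestive enzymes gave a median of -0.10 and 1 member past the limit (1.55% of tested genes), and median-of-ratios scaling gave 4 (2.23%). A pseudocount of 0.1 gave a median of -0.47 against -0.30 over tested genes, and 16 members past the limit against 31% of tested genes. For cells 49 to 91 minus cells 1 to 48, scaling without the enzymes gave a median of 0.13 against 0.05 over tested genes and 1 member against 1.40% of tested genes, and a pseudocount of 0.1 gave 1 member against 13% of tested genes. The Tmed10 share of p24 was 18.9% in short-total cells. TPM keep no read depth, so detection was compared without equal depth. No paired analysis was possible because the labels form 1 group.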
